A study of Mus musculus with 8 samples.

Results

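Toll-like receptors and their shared adaptor MyD88 were examined in RNA-seq of mouse bone marrow progenitors from wild-type (WT) and Ripk3-/- mice. The members were 10 genes chosen by name, out of 29955 gene names listed in each library: the receptors Tlr1, Tlr2, Tlr4, Tlr6, Tlr7 and Tlr9, the co-receptor Cd14, the adaptor Myd88 and the kinases Irak1 and Irak4. All 10 were listed in every library. The study sorted LSK cells (lineage-negative, Sca1-positive, Kit-positive, the fraction that holds hematopoietic stem cells and multipotent progenitors) and LK cells (lineage-negative, Kit-positive and Sca1-negative, mostly committed myeloid and erythroid progenitors) from both genotypes, with 2 libraries in each of the 4 groups. The strain label reads CD57BL6/J for every library and no age is given for these samples.

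The groups carried limits that bear on each result. The sample labels list no treatment, whereas the study's text states that mice of both genotypes had received repeated low-dose X-irradiation and that cells were taken after a recovery period. The sources do not say whether the 2 libraries of a group came from separate mice, so that p-values measure the spread between these libraries, which may be technical. Ripk3 signal was 144 to 168 in the WT libraries and 1.08 to 16.2 in the Ripk3-/- libraries. Its log2 fold change (Ripk3-/- minus WT, on signal + 1) was -5.78 in LSK and -3.39 in LK. The difference of -2.40 (SE 0.51) between the populations had an adjusted p of 0.0343 (limma), so more Ripk3 signal remained in Ripk3-/- LK. Reads of the Y-linked genes Eif2s3y and Uty were present in all 4 Ripk3-/- libraries and at 0 in all 4 WT libraries, while Xist signal was 108 to 413 in WT and 0 to 1.27 in Ripk3-/-. Genotype and sex of the mice therefore cannot be told apart, and Tlr7 and Irak1 lie on the X chromosome. Kit signal was 223 to 464 in all libraries, and Ly6a, which encodes Sca1, was 141 to 237 in LSK and 0.124 to 4.12 in LK. Libraries held 9782166 to 16280811 reads, and 1 read was worth a signal of 0.0621 to 0.104. Signal here is the read count relative to library size (CPM), scaled by a TMM library factor and not divided by gene length.

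Toll-like receptors recognize microbial products and signal through TIR domains. Tlr2 pairs with Tlr1 or Tlr6 at the cell surface to bind bacterial lipopeptides, Tlr4 with its partner Ly96 (MD-2) binds lipopolysaccharide, and Tlr7 and Tlr9 bind single-stranded RNA and CpG DNA in endosomes. Cd14 is a surface protein that hands lipopolysaccharide and lipopeptides to Tlr4 and Tlr2. Engaged receptors recruit MyD88, which assembles Irak4 and Irak1 and leads through Traf6 to NF-κB and MAP kinases. Hematopoietic stem and progenitor cells carry some of these receptors and can respond to their ligands directly.

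The upstream sequences of 7 of the 10 members were found in the RefSeq promoter table for GRCm38.p6, in 10 windows. Tlr4, Tlr7 and Cd14 had no window there and were not searched. In each window the 250 bases before the start site were searched on both strands for short motifs. Stretches with a match are shown for Tlr2 and Tlr1, receptors that differed between genotypes or populations, and for the shared adaptor Myd88. The NF-κB motif was found in the Tlr2 window and in no other window of a member, against 3.90% of all 32851 windows. Within the 30 Tlr2 bases printed here, chr3:83841762-83841791 on the minus strand, 183 to 154 bases before the start site, capitals mark overlapping matches on both strands. GENCODE places the start of Tlr2 further upstream, at 83841767, so the last bases printed lie in its annotated first exon.
Tlr2: taggacacctGGGGAATTCCCacacggagc
The letters GAGGAAG, a core bound by ETS factors such as PU.1, were found in 10.6% of all windows and in those of Tlr1 and Tlr9. The 30 bases of Tlr1 are chr5:64933564-64933593 on the minus strand, 35 to 6 bases before the start site, with the match in capitals.
Tlr1: aattaaatgttgGAGGAAGtaggagcttga
The letters GAAANNGAA, part of interferon response elements, were found in 7.13% of all windows and in those of Myd88 and Tlr6. The Myd88 stretch is chr9:119340042-119340268 on the minus strand, 250 to 24 bases before the start site, and capitals mark the match. It holds no annotated exon and lies in an intron of a longer Myd88 transcript.
Myd88: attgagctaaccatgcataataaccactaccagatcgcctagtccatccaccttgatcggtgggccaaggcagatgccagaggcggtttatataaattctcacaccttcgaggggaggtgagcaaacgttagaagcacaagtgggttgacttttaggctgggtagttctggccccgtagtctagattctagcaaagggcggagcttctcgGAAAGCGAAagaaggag
The AP-1 letters TGANTCA were found in 6.75% of all windows and, among members, only in that of Tlr9, while TTGCNNAA, a C/EBP core, was found in 9.56% of all windows and in that of Tlr6. None of the motifs searched lay in the windows of Irak1 or Irak4. A match describes letters in these windows and shows no binding.

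Myd88 had the highest mean transcript level per length among the members in both WT populations. Levels were compared between genes only as CPM per kilobase of the longest coding transcript, with all 8 libraries on one TMM scale. In WT LSK, Myd88 stood at 55.6 ± 9.13 CPM per kilobase (SD, n = 2), followed by Irak1 at 20.6 ± 2.16 and Irak4 at 15.2 ± 1.06. Cd14 at 8.97 ± 2.26 and Tlr2 at 8.04 ± 1.14 came next and did not differ beyond their spread. The remaining receptors stood at 1.64 ± 0.614 for Tlr7, 1.06 ± 1.497 for Tlr4, 0.618 ± 0.840 for Tlr6, 0.344 ± 0.0802 for Tlr9 and 0.116 ± 0.121 for Tlr1, and the spreads of Tlr7, Tlr4 and Tlr6 overlapped. In WT LK Cd14, at 45.1 ± 4.35 CPM per kilobase, stood second, after Myd88 at 63.7 ± 17.8, with spreads that overlapped. Tlr2 stood at 10.03 ± 1.22 in WT LK, and each of the other receptors below 2 in both WT populations.

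**Figure D1:**
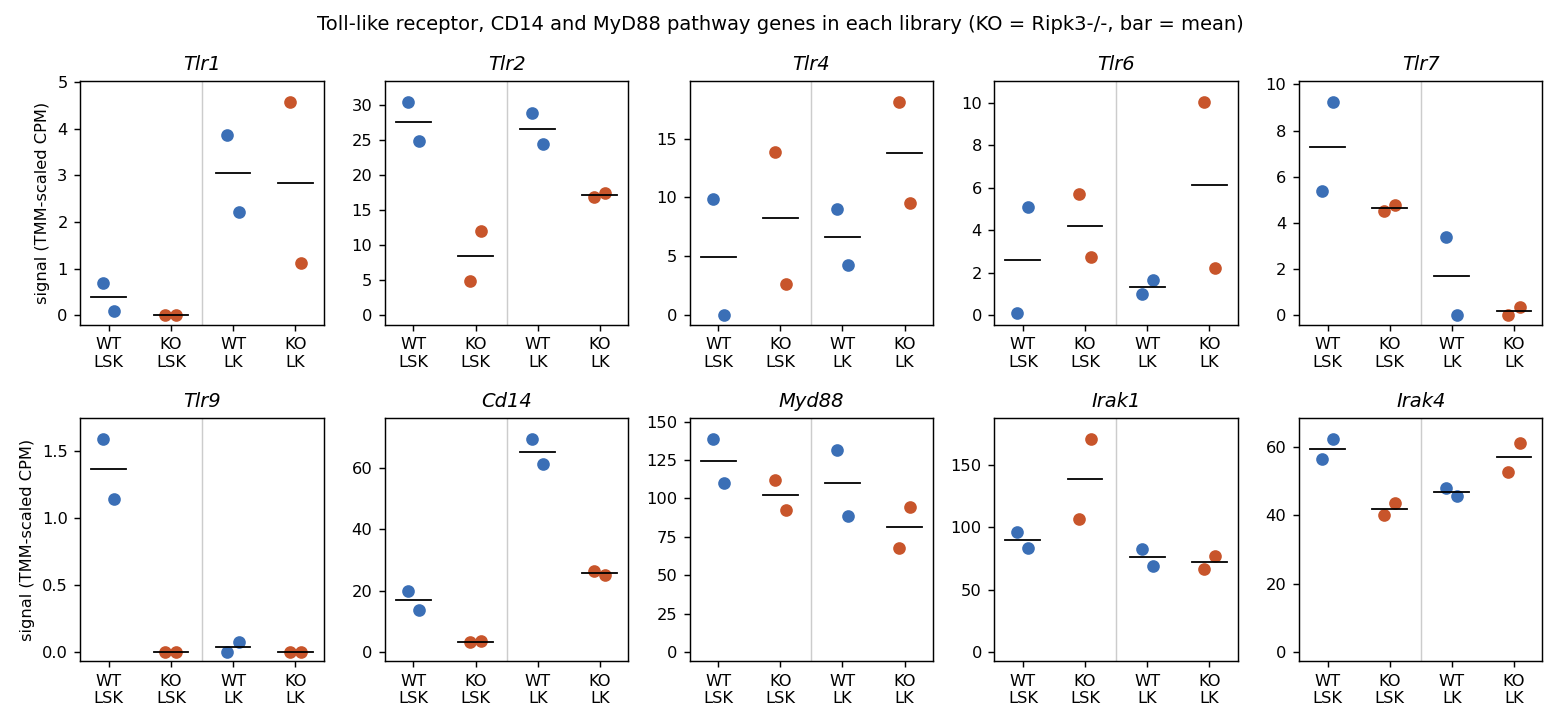
Signal (TMM-scaled CPM, linear axes of different range, LSK and LK scaled separately by the authors) of the 10 genes in each library, with points for libraries and a bar for the mean of 2. Cd14 and Tlr2 lie lower in both Ripk3-/- libraries than in both WT libraries in LSK and in LK, whereas Tlr4 and Tlr6 spread widely within groups.

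The lipopolysaccharide co-receptor Cd14 was lower in Ripk3-/- cells. Cd14 signal in LSK was 19.8 and 13.8 in the WT libraries and 3.13 and 3.62 in the Ripk3-/- libraries, 4.97-fold lower by the means. The groups did not overlap. In LK the signal was 69.3 and 61.1 in WT and 26.4 and 24.9 in Ripk3-/-, 2.54-fold lower, again without overlap. The log2 fold change (Ripk3-/- minus WT, on signal + 1) was -2.00 (SE 0.39) in LSK with an adjusted p of 0.00636 (limma, Benjamini-Hochberg over 16817 genes) and -1.31 (SE 0.39) in LK with an adjusted p of 0.243 over 13949 genes. The fold change did not differ detectably between the populations, with a difference of -0.69 (95% interval -1.84 to 0.45) and an adjusted p of 0.694 (limma). Averaged over both populations, a comparison added after these values were seen, Cd14 fell by 1.66 on the log2 scale (SE 0.28) with an adjusted p of 0.00137 (limma), and it stayed under 0.05 without any single library.

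The Cd14 calls changed with the library left out and with the fit. In LSK the adjusted p of limma rose to 0.0718 without WT LSK replicate 1, to 0.05085 without Ripk3-/- LSK replicate 1, and to 0.134 when LSK was fitted alone. In LK it was 0.00708 when LK was fitted alone with limma and 0.00882 with DESeq2. Cd14 lies at chr18:36725067-36726798 on the minus strand in GRCm38.

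Cd14 is also a monocyte gene, and the marker lists moved as follows. The summed signal of 9 other monocyte and macrophage markers was 1224 to 1253 in WT LSK and 1312 to 1351 in Ripk3-/- LSK, and 2405 to 2638 in WT LK and 2576 to 2698 in Ripk3-/- LK, and none of the 8 tested was called in either population (limma). Most of the LSK sum came from Lyz2, which neutrophils also express, at 842 and 787 in WT LSK and 965 and 942 in Ripk3-/- LSK, and from Ly6c2. Cd68, a lysosomal protein of macrophages, lay lower in Ripk3-/- without overlap, at 44.5 and 33.7 in WT LSK against 28.5 and 22.9 in Ripk3-/- LSK, and at 58.0 and 41.5 against 36.02 and 36.02 in LK. Both Ripk3-/- libraries lay below both WT libraries for 23.2% of all genes tested in LSK and 19.9% in LK. The median log2 fold change of the tested monocyte and macrophage markers, Cd14 included, was -0.12 in LSK and 0.14 in LK. The summed signal of 9 LSK markers was 1820 to 1904 in WT LSK and 2663 to 2669 in Ripk3-/- LSK. That of 8 LK markers, 7 of them called higher in LK as Cd14 was, stood at 8058 to 9089 in WT LSK and 5987 to 7662 in Ripk3-/- LSK, with 1 called lower, and at 65363 to 74329 against 51077 to 66706 in LK, where the groups overlapped. Csf1r and Lyz2, from the monocyte and macrophage list, were above 0 in every library, which gives no measure of monocyte content. The summed signal of 9 neutrophil markers was 708 to 770 in WT LSK and 2340 to 2768 in Ripk3-/- LSK, and 784 to 787 against 1687 to 1689 in LK. Of these, 7 were called higher in Ripk3-/- LSK and 5 in Ripk3-/- LK. Their part in the results was not tested, and in sorted populations fewer cells of a type and less RNA per cell cannot be told apart.

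Tlr2, the lipopeptide receptor, was lower in Ripk3-/- LSK. Its signal in LSK was 30.4 and 24.9 in WT and 4.90 and 12.03 in Ripk3-/-, 3.26-fold lower by the means, without overlap. In LK it was 28.8 and 24.5 in WT and 16.9 and 17.4 in Ripk3-/-, 1.56-fold lower, also without overlap. The log2 fold change was -1.70 (SE 0.42, adjusted p 0.0395, limma) in LSK and -0.60 (SE 0.43, adjusted p 0.883, limma) in LK. The difference between the populations of -1.09 (95% interval -2.34 to 0.15) had an adjusted p of 0.550 (limma).

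The LSK call for Tlr2 lay close to the threshold. It was lost without each library except Ripk3-/- LSK replicate 2, with adjusted p between 0.0614 and 0.207 (limma) in those fits, and the fold change was smallest, at -1.13, without Ripk3-/- LSK replicate 1. It was lost with edgeR (adjusted p 0.0842) and held with DESeq2 (adjusted p 0.00975).

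Tlr6 and Tlr1, the partners of Tlr2, gave few reads and no called difference between genotypes. Tlr6 was represented by 1 and 49 reads in WT LSK and by 71 and 28 in Ripk3-/- LSK, and by 15 and 22 reads in WT LK and 158 and 36 in Ripk3-/- LK. Groups overlapped in LSK, and in LK both Ripk3-/- libraries lay above both WT libraries. The log2 fold change of Tlr6 was 0.95 (SE 0.78) in LSK and 1.36 (SE 0.78) in LK, with adjusted p of 0.547 and 0.833 (limma). Tlr1 had 7 and 1 reads in WT LSK and none in either Ripk3-/- LSK library, too few for a test. In LK its reads were 57 and 29 in WT and 72 and 18 in Ripk3-/-, which overlapped (log2 fold change -0.20, SE 0.69, adjusted p 0.981, limma).

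Tlr4, the lipopolysaccharide receptor, varied widely within groups. Its reads were 99 and 0 in WT LSK, 172 and 27 in Ripk3-/- LSK, 133 and 56 in WT LK and 285 and 153 in Ripk3-/- LK. A WT LSK library thus held no Tlr4 read while the other library of the same group held 99. The log2 fold change was 1.16 (SE 0.85, adjusted p 0.495, limma) in LSK, where groups overlapped, and 0.96 (SE 0.83, adjusted p 0.909, limma) in LK, where both Ripk3-/- libraries lay above both WT libraries. The 95% intervals of -0.60 to 2.92 in LSK and -0.77 to 2.69 in LK leave room for differences in either direction.

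The endosomal receptors were sparse. Tlr7 had 54 and 89 reads in WT LSK and 56 and 49 in Ripk3-/- LSK, and its log2 fold change was -0.51 (SE 0.70, adjusted p 0.738, limma). In LK it had 50 and 0 reads in WT and 0 and 6 in Ripk3-/-, below the mean signal of 1 required for a test. Tlr9 had 16 and 11 reads in WT LSK and 0 in both Ripk3-/- LSK libraries. With 3 reads per library as the floor for Ripk3-/- LSK, the mean Tlr9 signal in WT LSK was 5.10-fold that floor. This ratio leaves out the counting error of the WT reads and the spread between libraries. The gene was below the minimum for testing. In LK 1 Tlr9 read was found in 1 WT library and none in the other 3 libraries.

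The adaptor and kinases showed smaller differences. Myd88 signal was 139 and 110 in WT LSK, 112 and 92.6 in Ripk3-/- LSK, 131 and 88.8 in WT LK and 67.7 and 94.6 in Ripk3-/- LK, with overlap in both populations. Its log2 fold change was -0.27 (95% interval -0.78 to 0.24) in LSK and -0.43 (95% interval -0.93 to 0.08) in LK, with adjusted p of 0.593 and 0.835 (limma). Myd88 shares 224 identical bases with the transcript of Acaa1a, which overlaps it on the opposite strand, and the sources do not state whether the counting used strand. Irak1, the kinase released from the receptor complex, was 96.6 and 83.3 in WT LSK and 107 and 171 in Ripk3-/- LSK, without overlap (log2 fold change 0.58, SE 0.25, adjusted p 0.218, limma). In LK it was 82.6 and 69.3 in WT and 66.8 and 76.9 in Ripk3-/- (log2 fold change -0.08, SE 0.24, adjusted p 0.979, limma). A stretch of at least 200 bases of the Irak1 transcript matched transcripts of 17 other genes at 90% identity or more.

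Irak4, the first kinase recruited by MyD88, went opposite ways in the populations without passing a test. Its signal was 56.4 and 62.3 in WT LSK and 40.0 and 43.5 in Ripk3-/- LSK, and 48.0 and 45.5 in WT LK and 52.8 and 61.0 in Ripk3-/- LK. The Ripk3-/- libraries lay below both WT libraries in LSK and above both in LK. The log2 fold changes were -0.50 (SE 0.26, adjusted p 0.324, limma) and 0.27 (SE 0.26, adjusted p 0.920, limma), and their difference of -0.77 (SE 0.37) had an adjusted p of 0.493 (limma). Irak4 overlaps the gene Twf1 on the opposite strand, and whether the counting used strand is not stated.

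**Figure D2:**
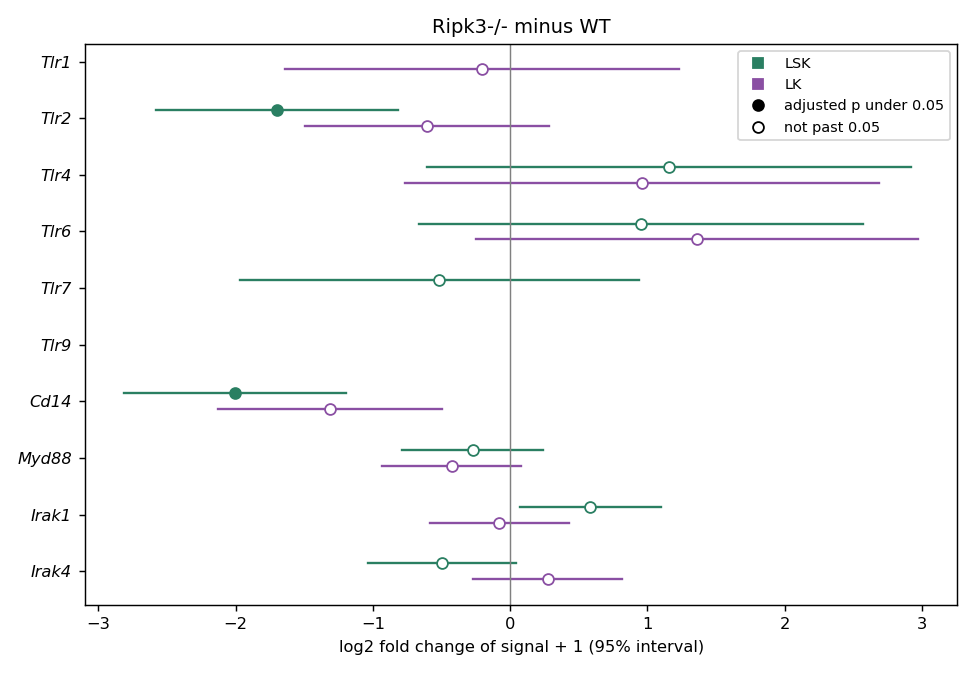
Log2 fold change of signal + 1 (Ripk3-/- minus WT) with 95% intervals for LSK and LK, filled where the adjusted p of limma was under 0.05. Cd14 at -2.00 and Tlr2 at -1.70 in LSK are the filled points, and Tlr9 in both populations, Tlr1 in LSK and Tlr7 in LK were below the minimum for testing.

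Counted together, 2 of the 8 members tested in LSK were called, both lower in Ripk3-/-, against 2.16% of all genes tested called in either direction and 1.27% called lower. In LK 0 of 8 were called by limma against 0.473% of all genes, 0 by edgeR and 1 by DESeq2. In LK 1 member had an unadjusted p under 0.05 (limma), against 915 of all 13949 genes tested. For the difference of the genotype effect between populations 0 of 9 were called against 0.358% of all genes, and 0 by edgeR and DESeq2. For that difference 1 member had an unadjusted p under 0.05 (limma), against 1613 of all 15901 genes tested. Over both populations 1 of 9 was called, Cd14, against 1.64% of all genes. Among tested members, both Ripk3-/- libraries lay below both WT libraries for 4 of 8 in LSK, where 23.2% of all genes tested did so, and for 2 of 8 in LK, where 19.9% did. They lay above for 1 of 8 in LSK, against 21.4%, and for 3 of 8 in LK, against 20.1%. The median log2 fold change of the tested members was -0.38 in LSK and -0.14 in LK, against -0.0086 and 0.0093 over all genes tested.

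The comparison of LK with LSK asked how receptor expression differs between committed progenitors and the stem cell fraction, with all 8 libraries on one TMM scale. Cd14 was higher in LK. Its CPM on that scale was 17.3, 12.1, 2.78 and 3.17 in the LSK libraries (WT first) and 79.0, 68.9, 29.97 and 28.5 in the LK libraries, so that the lowest LK library lay above the highest LSK library. The log2 difference (LK minus LSK over both genotypes, on CPM + 1) was 2.60 (SE 0.28), with an adjusted p of 1.70e-07 (limma) and an exact two-sided permutation p of 0.0286, the smallest that 4 against 4 libraries allow. It was 2.27 (SE 0.39) in WT and 2.93 (SE 0.39) in Ripk3-/-, called in both by limma.

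Tlr1 was nearly absent from LSK and present in LK. Its CPM was 0.610, 0.0909, 0 and 0 in LSK and 4.41, 2.50, 5.19 and 1.28 in LK, without overlap (log2 difference 1.81, SE 0.47, adjusted p 0.00436, limma, exact permutation p 0.0286). Tlr7 ran the other way, with 4.71, 8.09, 3.99 and 4.19 in LSK and 3.87, 0, 0 and 0.427 in LK, also without overlap (log2 difference -1.90, SE 0.50, adjusted p 0.00522, limma, exact permutation p 0.0286). The Tlr7 call was lost without WT LK replicate 2 (adjusted p 0.0556, limma) and with edgeR (adjusted p 0.0518).

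Tlr2 differed less, with 26.7, 21.8, 4.34 and 10.5 CPM in LSK and 32.8, 27.6, 19.2 and 19.9 in LK, and the ranges overlapped. Its log2 difference was 0.85 (SE 0.30, adjusted p 0.0325, limma, exact permutation p 0.229). It was called within Ripk3-/- (1.39, SE 0.42, adjusted p 0.0226, limma) and not within WT (0.31, SE 0.43, adjusted p 0.617, limma). On the scale the authors used, which normalized LSK and LK separately, the difference over both genotypes was 0.50 with an adjusted p of 0.197 (limma). On one scale it was lost without each library except WT LSK replicate 1 and Ripk3-/- LSK replicate 2, with adjusted p between 0.0553 and 0.132 (limma).

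The other members did not pass the test over both genotypes. Tlr4 differed by 1.33 (SE 0.57, adjusted p 0.0776, limma) and was called without WT LSK replicate 1 (adjusted p 0.00479) or Ripk3-/- LSK replicate 1 (adjusted p 0.0211). The differences were smaller for Irak4 at 0.41 (SE 0.19, adjusted p 0.0922, limma), Tlr6 at 0.29 (SE 0.54, adjusted p 0.698, limma), Myd88 at 0.10 (SE 0.18, adjusted p 0.685, limma) and Irak1 at -0.21 (SE 0.17, adjusted p 0.377, limma). Irak1 was called lower in LK on the authors' scale (-0.57, adjusted p 0.01499, limma). Irak4 was called higher in LK within Ripk3-/- (0.80, SE 0.26, adjusted p 0.0351, limma) and not within WT (0.027, SE 0.26, adjusted p 0.950, limma). Within Ripk3-/- the calls of Tlr1, Tlr2, Tlr7 and Irak4 were each lost on leaving out Ripk3-/- LSK replicate 1, with adjusted p of 0.110, 0.210, 0.116 and 0.104 in that order (limma), and on leaving out 2 to 5 other single libraries.

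Over both genotypes 3 of 9 tested members were higher in LK and 1 was lower, against 20.2% and 13.7% of all genes tested and 34% in either direction. Within WT 1 of 9 was called against 23.9% of all genes, and within Ripk3-/- 5 of 9 against 20.2%. The scale set the balance of calls over all genes, with 3187 higher and 2164 lower in LK on one TMM scale and 1473 higher and 3890 lower on the authors' scale, and the median log2 difference of all genes moved from -0.069 to -0.39.

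**Figure D3:**
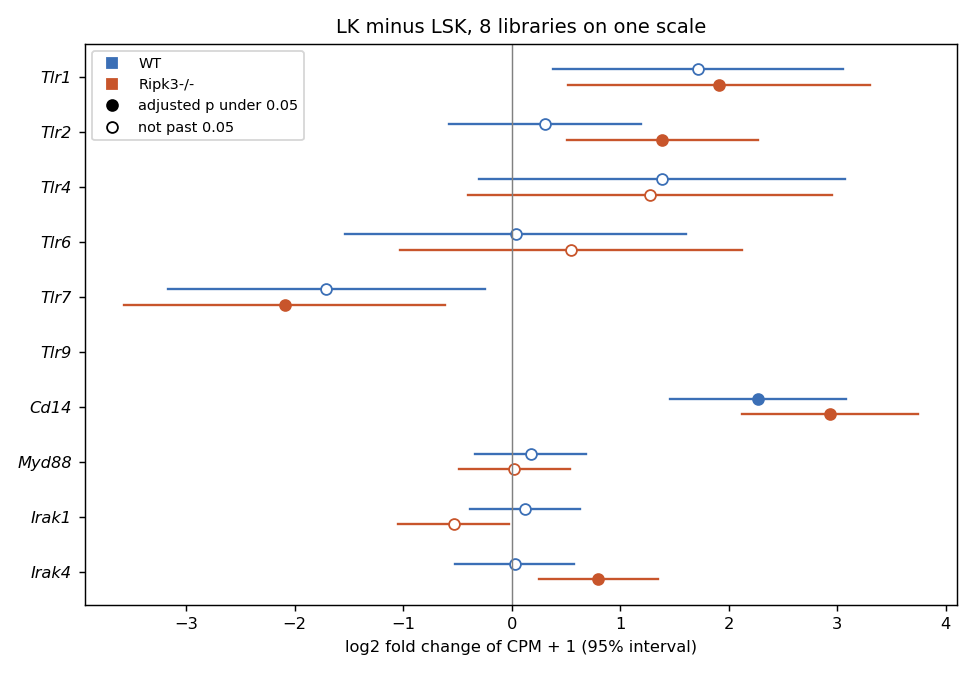
Log2 fold change of CPM + 1 (LK minus LSK, all libraries on one TMM scale) with 95% intervals in WT and in Ripk3-/-, filled where the adjusted p of limma was under 0.05. Cd14 is filled in both genotypes, and Tlr1, Tlr2, Tlr7 and Irak4 only in Ripk3-/-, where the difference between genotypes was not called for any of them.

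Of the other genes in or near the pathway, 56 receptors, partners, adaptors, kinases and IL-1 family receptors outside the members were examined. None of the 49 tested in LSK was called between genotypes by limma, near the 2.16% of all genes, with 0 called by edgeR and 1 by DESeq2. Of these 49, 8 had an unadjusted p under 0.05 (limma), against 3011 of all 16817 genes tested. None of the 47 tested in LK was called by limma either, near the 0.473% of all genes, and 0 by edgeR and DESeq2. Of these 47, 1 had an unadjusted p under 0.05 (limma), against 915 of all 13949 genes tested. Of the 6 other Toll-like receptors, 2 were tested in LSK and none in LK. The median log2 fold change of these 2 was 1.09, and neither was called (limma). In LSK, Tlr12 was higher in Ripk3-/- (6.03 and 3.03, against 0 and 1.24 in WT) without overlap. Tlr11 (0.482 and 2.05, against 0 in both WT libraries) had the same order, and groups overlapped for Tlr3, Tlr5 and Tlr8. Tlr13, an X-linked receptor of bacterial RNA, was lower in Ripk3-/- LSK, with 0 in both libraries against 1.49 and 1.66. In LK both Ripk3-/- libraries (0.317 and 0.559) lay above the WT values of 0 and 0.153 for Tlr13. Tlr11 and Tlr13 were below the minimum for testing. Irak3, the inhibitory kinase, was listed at 0 in all 8 libraries.

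Between populations, where 34% of all genes tested were called, 7 of the 12 receptor partners and trafficking factors were higher and 2 lower in LK over both genotypes (limma). Ly86 (MD-1), the partner of the receptor Cd180, rose from a mean of 10.8 to 78.1 CPM (log2 difference 2.96, SE 0.33), and Hsp90b1, the chaperone that folds Toll-like receptors, from 260 to 763 CPM (1.56, SE 0.12). Unc93b1, which carries endosomal receptors out of the endoplasmic reticulum, was called higher in LK in WT and in Ripk3-/-, with means of 141 CPM in LSK and 372 in LK. Ly96, the subunit of Tlr4 that binds lipopolysaccharide, fell from 23.5 to 6.26 CPM (-1.57, SE 0.45), and Lgmn, an endosomal protease, was lower as well (-1.76, SE 0.41).

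The calls among adaptors and kinases were near that share of all genes. Of 13 adaptors and negative regulators tested, 4 were higher and 1 lower in LK, led by the IL-33 receptor chain Il1rl1 (1.94, SE 0.45) and the Tlr4 adaptor Ticam2 (1.33, SE 0.25), followed by Tollip (0.64, SE 0.16) and Pik3ap1 (0.62, SE 0.22), with Sigirr, an inhibitor of IL-1 receptor signaling, lower (-0.71, SE 0.18). Of 16 kinases and ubiquitin ligases tested, 5 were higher and 1 lower, with Chuk, the IκB kinase α, at 1.17 (SE 0.21) and Map3k8, a kinase upstream of ERK, at -2.05 (SE 0.39). Among 6 IL-1 family receptors, Il1r1 fell from 40.7 to 5.35 CPM (-2.84, SE 0.36) and Il18r1 from 14.7 to 2.24 CPM (-2.30, SE 0.42), whereas Il1rl2 (1.48, SE 0.46) and the shared subunit Il1rap (1.12, SE 0.32) were higher in LK. Of 6 interferon regulatory factors, Irf8, which directs monocyte and dendritic fates, was higher (2.34, SE 0.15), and Irf7 (-1.90, SE 0.27), Irf1 (-0.65, SE 0.12) and Irf5 (-0.62, SE 0.23) were lower. All of these differences were called by limma on one scale. The Irf5 and Pik3ap1 calls were each lost without 6 of the 8 single libraries. The Il1rl2 call was lost without WT LSK replicate 2 (log2 difference 0.996), WT LK replicate 1 or Ripk3-/- LK replicate 1, the Il1rap call without WT LSK replicate 2 (0.72), and the Ly96 call without Ripk3-/- LSK replicate 2 (-0.93) or WT LK replicate 1. Of 17 alternative settings, leave-one-out fits included, 9 kept the Irf5 call, 8 Pik3ap1, 10 Il1rl2, 13 Il1rap and 14 Ly96.

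Genes that Toll-like receptors are known to induce were lower in Ripk3-/- cells where they were called. Of 19 such genes tested in LSK, 3 fell and none rose, and of 16 tested in LK, 4 fell and none rose (limma), against 2.16% and 0.473% of all genes called in either direction. Other stimuli such as Tnf induce most of these genes as well. Nfkbia, the NF-κB inhibitor that NF-κB itself induces, had a signal of 1852 and 2001 in WT LSK and 879 and 849 in Ripk3-/- LSK, and of 1736 and 1792 in WT LK and 532 and 634 in Ripk3-/- LK. The groups were separate in both populations, with log2 fold changes of -1.16 (SE 0.14, adjusted p 4.13e-05, limma) and -1.60 (SE 0.14, adjusted p 7.39e-07, limma).

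The chemokine Cxcl10 stood at 54.6 and 44.9 in WT LSK against 12.2 and 16.5 in Ripk3-/- LSK (-1.73, SE 0.31, adjusted p 0.00340, limma), and at 85.8 and 115 in WT LK against 17.0 and 17.3 in Ripk3-/- LK (-2.46, SE 0.32, adjusted p 0.000153, limma). Marcksl1, a cytoskeletal protein induced in macrophages, fell in LSK (-0.97, SE 0.23, adjusted p 0.0284, limma). In LK the neutrophil chemokine Cxcl2 (-1.33, SE 0.29, adjusted p 0.0364, limma) and the cytokine signaling inhibitor Socs3 (-1.28, SE 0.27, adjusted p 0.0268, limma) fell. Irf1, 1 of 5 interferon regulatory factors tested in LK, fell as well (-0.74, SE 0.17, adjusted p 0.0450, limma). The Marcksl1 call was lost without each LSK library, the Cxcl2 and Irf1 calls without either WT LSK library or any LK library, and the Socs3 call without those except WT LK replicate 2. The Cxcl10 call in LSK was lost without WT LSK replicate 1 and without Ripk3-/- LSK replicate 1, whereas Nfkbia in both populations and Cxcl10 in LK were called without any single library. Of 18 alternative settings, leave-one-out fits included, 15 kept the Cxcl10 call in LSK. Nfkbia in LSK, Nfkbia in LK and Cxcl10 in LK were each kept in 17. Over both populations, the comparison added after values were seen, 6 of 18 tested were lower and none higher (limma). Of all 15901 genes tested there, 166 were lower and 94 higher. The 6 included Nfkbia (-1.38, SE 0.10) and Cxcl10 (-2.10, SE 0.22).

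**Figure D4:**
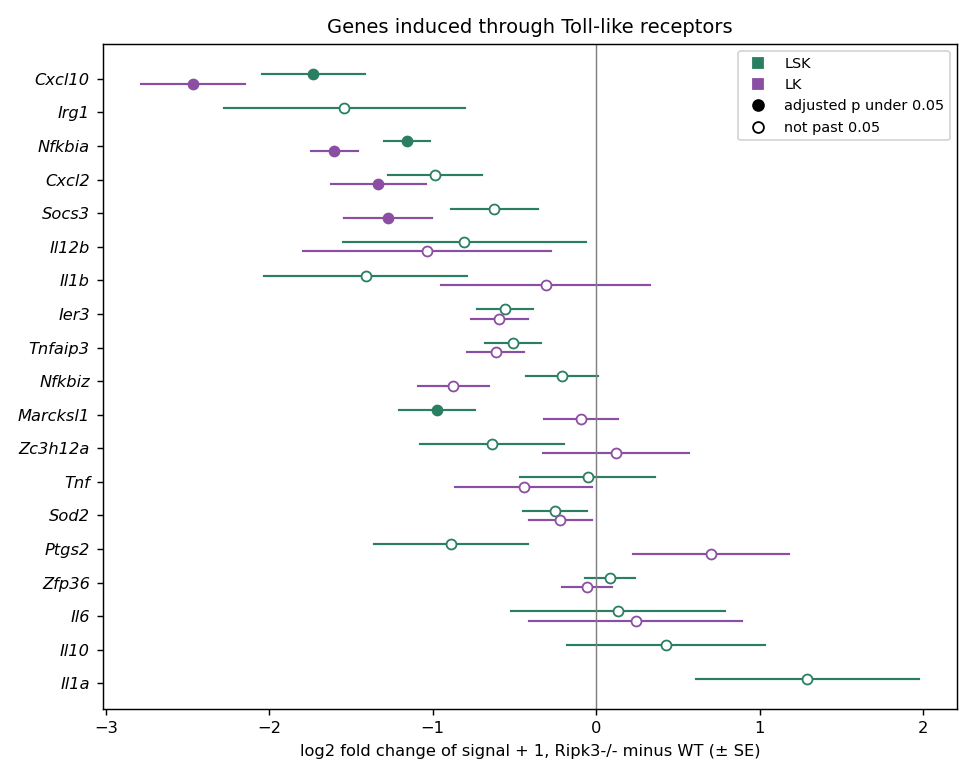
Log2 fold change of signal + 1 (Ripk3-/- minus WT) with standard errors for genes induced through Toll-like receptors in LSK and LK, filled where the adjusted p of limma was under 0.05. Nfkbia and Cxcl10 are filled in both populations, and the median over tested genes was -0.62 in LSK and -0.52 in LK.

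More of the induced genes were lower than higher in LK. Of 18 tested, 3 were higher and 9 lower in LK over both genotypes (limma), against 20.2% and 13.7% of all genes tested. The lower genes included the RNA-destabilizing protein Zfp36, with means of 2790 CPM in LSK and 902 in LK (-1.63, SE 0.11), and Socs3, with 114 and 25.1 CPM (-2.25, SE 0.19). Nfkbiz (-1.42, SE 0.16) and Marcksl1 (-1.31, SE 0.16) were lower in LK as well. The median log2 difference of the list was -0.76, against -0.069 over all genes tested.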

How the data were processed

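Members and gene lists were chosen with earlier results of these data known, and nothing here is independent of them. Values were used as the authors deposited them. The submitters' processing notes name TopHat and mm9, and the counting program, annotation and strand setting are not given in the sources used here. The signal values deposited by the authors carry the heading FPKM, but in all 8 libraries 100% of values lay within 0.01 of whole reads times 1 step per library, equal to CPM scaled by TMM within LSK and within LK. Libraries were not depth-matched, and counting intervals would cover counting error only.

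Genotype contrasts and their difference were fitted with limma 3.58.1 (trend) on log2(signal + 1) over all 8 libraries and 4 group means, for genes whose mean signal in the compared libraries reached 1. LK minus LSK was fitted likewise on recovered reads scaled by 1 TMM over all 8 libraries (edgeR 4.0.16). P-values were two-sided and adjusted by Benjamini-Hochberg over all genes tested, with 0.05 as threshold. Members were also tested by exact permutation of 4 LSK against 4 LK libraries (scipy 1.17.1). Alternatives used edgeR and DESeq2 1.42.0 on recovered reads, other filters, pseudocounts and scalings, a replicate block, and each library left out. Only the limma and edgeR fits of the genotype difference in LSK were tried on simulated reads with known changes. Deviations of same-numbered libraries did not correlate in all groups (r from -0.145 to 0.0510), so numbers were not treated as pairs. From each list, up to 4 called genes with the largest change were named in a comparison, and all could be named where no more than 5 were called. Positions, lengths and overlaps come from GENCODE M21 (GRCm38), similar transcripts from blastn 2.17.0 (90% identity over 200 bases) and promoters from RefSeq (GRCm38.p6). No coordinates were converted.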

Additional observations from a re-analysis of the deposited data

Results flagged for a closer look

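Irak4 drew attention because both Ripk3-/- libraries lay below both WT libraries in LSK and above both in LK. The difference between the 2 genotype effects was -0.77 on the log2 scale (SE 0.37), with an unadjusted p of 0.04999 and an adjusted p of 0.493 (limma), so it did not pass the test. Over both populations the log2 fold change was -0.11 (SE 0.19).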

How the results depend on the processing

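Results kept their direction in most settings. Counts of genes called between genotypes, 363 in LSK and 66 in LK, were 198 and 9 with no filter on low values, 120 and 3 with no trend in the prior variance, 195 and 125 with each population fitted alone, 613 and 177 with DESeq2, and 237 in LSK with edgeR. The difference of effects gave 57 genes, and 3, 2 and 155 with no filter, no trend and DESeq2, and the comparison over both populations gave 260 and, with DESeq2, 526. Members called in LSK went from 2 to 1 with a pseudocount of 0.1, no filter, edgeR or no trend, and to 0 with LSK alone, in LK from 0 to 1 with DESeq2 or LK alone, and over both populations from 1 to 2 with DESeq2. For LK against LSK, members called went from 4 to 2 with a mean of at least 5 or edgeR, within WT from 1 to 2 with no filter, median-centred libraries or plain CPM, and within Ripk3-/- from 5 to 2 with no filter or edgeR and to 3 with a mean of at least 5, the authors' scale, plain CPM or the replicate block.

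On the authors' scale and with plain CPM, Myd88 turned to -0.27 in both, Tlr2 within WT to -0.0475 and -0.10, and Irak4 within WT to -0.34 and -0.39, and Irak4 within WT was -0.0181 with edgeR and -0.0428 with DESeq2. Leaving out each library gave 99 to 262 genes in LSK, 13 to 101 in LK, 17 to 90 for the difference, 100 to 210 over both populations, 1502 to 4116 for LK against LSK within WT and 1489 to 3163 within Ripk3-/-. Members called were then 0 to 2 in LSK, 1 to 2 over both populations, and for LK against LSK 2 to 5 over both genotypes, 1 to 2 within WT and 1 to 4 within Ripk3-/-. Log2 fold changes without 1 library ran from -0.56 to 2.88 for Tlr4 and -0.28 to 2.19 for Tlr6 in LSK, -0.90 to 0.49 for Tlr1 and -0.20 to 0.0473 for Irak1 in LK, and -0.68 to 0.0202 for Tlr1 over both populations. For LK minus LSK they ran from -0.29 to 0.88 for Tlr6 and -0.0433 to 0.24 for Myd88, and for Irak4 within WT from -0.0430 to 0.0968.

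The replicate block left 317 genes and 2 members called in LSK and 64 genes in LK. Within Ripk3-/-, where same-numbered LSK and LK libraries correlated at -0.145, crossing the numbers (added after seeing the data) gave 3380 genes called against 3072 with no block and 2684 with the numbers as given. Of 2059 other values over settings, 1784 kept direction and side of the threshold, 243 lost it, 11 gained it and 21 changed sign. The cause of these shifts was not tested. Precision was limited by 2 libraries per group and, for several receptors, by a few reads.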
